A study of Caenorhabditis elegans with 8 samples.

Results

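Body wall muscle structural genes of Caenorhabditis elegans, a nematode, were compared between ercc-1 mutant worms and wild type N2. The set holds 35 genes with a part in the sarcomere, the contractile unit of muscle, and in its anchorage. It was drawn up from known gene functions, with earlier results of these data known. Each gene was read by the single-gene probe set with the highest mean over the 8 arrays. All 35 were found among 17118 genes with such a probe set. The ercc-1 mutant, described in the labels as deficient in nucleotide excision repair (NER) and kept in the N2 background, was hybridised to 4 arrays, and wild type N2, the standard laboratory strain, to 4 others. The ERCC-1 protein works with XPF as the nuclease that cuts damaged DNA on the 5′ side of the lesion in that repair. Both genotypes were mixed-stage cultures, fed for 3 to 4 days with Escherichia coli of the strain HT115(DE3), which held pL4440, the vector backbone of feeding RNA interference. The labels name no ercc-1 allele and no age, and do not say whether the replicates were separate cultures, so each p-value measures the spread among these arrays alone, and that spread may be technical.

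Body wall muscle of this worm is obliquely striated and drives locomotion. Its thick filaments hold myosin around a core of paramyosin and are organised at M-lines, and its thin filaments hold actin, tropomyosin and troponin and are anchored at dense bodies, the counterpart of vertebrate Z-discs. Both structures are tied through integrin to a basement membrane rich in perlecan, which passes force to the hypodermis and cuticle. Worms that lack single components are uncoordinated (unc genes) or arrest paralysed as embryos (pat genes).

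The median log2 value over 22548 probe sets was 7.44 to 7.59 on the mutant arrays and 7.39 to 7.44 on the wild-type arrays. Each array listed 0 to 4 values at 0, none of them in the 35 probe sets used. No detection call was used. None of the 35 probe sets lay among the dimmest 25% by mean, which ended at 6.42, so transcripts of every gene that defines the set, the body wall myosins unc-54 and myo-3 among them, gave a reading above that bound. The ercc-1 probe set read 9.84 ± 0.074 on the mutant arrays and 9.85 ± 0.124 on those of wild type (SD, n = 4 each), and since the position of its probes relative to the unnamed allele is not known here, it does not check the labels. The RNA is described by stage alone, with no dissected tissue. A different share of muscle cells, a different mix of stages and a different amount of RNA per muscle cell thus cannot be told apart in any value below.

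None of the 35 genes passed the test between genotypes after adjustment, and most of them stood slightly above wild type in the mutant mean. Of the 35, 0 were called higher and 0 lower (limma, Benjamini-Hochberg adjusted p under 0.05 over all 22548 probe sets). Over all 17118 genes, 0.532% were called higher and 0.14% lower, and 0.672% in either direction, and over all probe sets it was 0.665%. At an unadjusted p under 0.05 there were 4 of 35, all higher, against 10.5% of all genes in either direction and 8.27% higher. The mutant mean was above the wild-type mean for 32 of 35 genes and below it for unc-45, unc-60 and unc-97, against 59.5% of all genes above. The median log2 difference, mutant minus wild type, was 0.165 over the 35 genes, with a range from -0.08 to 0.51, and 0.030 over all genes. The 4 mutant values lay wholly above the 4 wild-type values for 2 of the 35 genes, atn-1 and unc-98, against 5.01% of all genes, and wholly below for 0, against 1.87%. Counts at unadjusted p and of separate groups were thus near those of all genes. With each array centred on its median the count above wild type was 26 of 35, against 33.1% of all genes. The median was then 0.075, and -0.06 over all genes. After quantile normalization the count was 29, against 45.8% of all genes, with medians of 0.125 and -0.013. A fit with array weights called 3 of the 35 genes higher, atn-1, unc-54 and unc-27 (limma adjusted p = 0.0289, 0.0459 and 0.0429). That fit called 1423 of all 22548 probe sets in either direction, against 150 in the unweighted fit. It gave mutant replicate 2 a weight of 5.05 and the other mutant arrays 0.32 to 0.62.

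The mutant arrays differed among themselves for most of these genes. On mutant replicate 1 the muscle genes were high, with all 35 above their wild-type mean and a median deviation of 0.435, or 1.35-fold. On mutant replicate 3 they were low, with 9 above, 25 below and a median deviation of -0.145. Replicates 2 and 4 lay between, with 29 and 25 genes above and medians of 0.198 and 0.152. The medians over all 17118 genes on the same arrays were 0.035, 0.038, 0.000 and 0.040 for mutant replicates 1 to 4. On replicate 1, 34 of 35 genes read above all 4 wild-type arrays, against 35% of all genes, and 0 below all 4, against 19.5%. On replicate 3, 3 genes were above all 4 wild-type arrays, against 24.4%, and 14 below, against 25%. Replicate 2 had 21 genes above (29.1% of all genes) and 2 below (15.1%), and replicate 4 had 22 above (35.5%) and 6 below (22.8%).

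**Figure D1:**
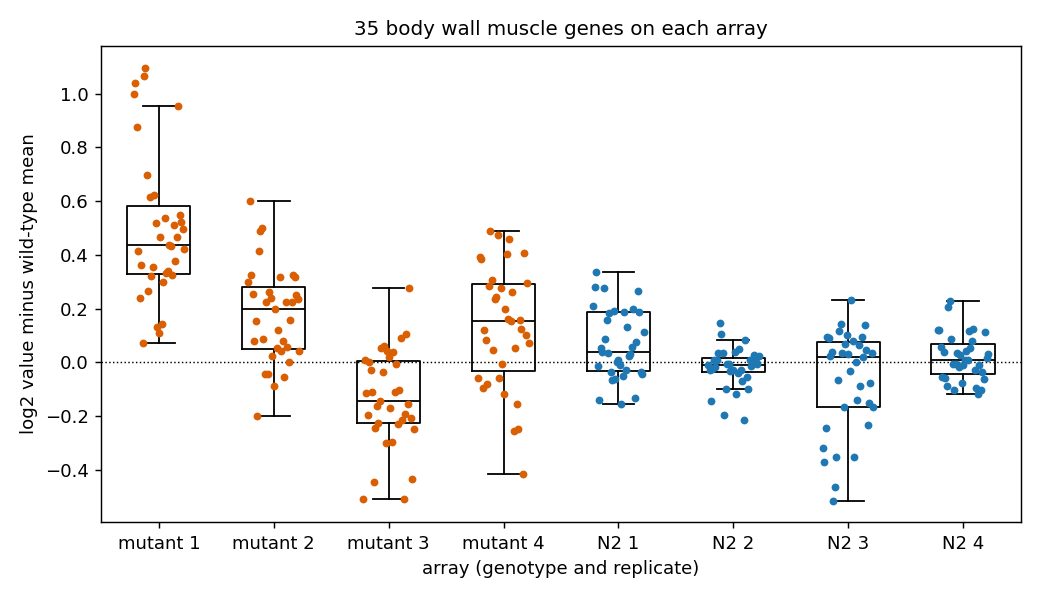
Log2 value minus the gene's wild-type mean (vertical axis) for the 35 muscle genes on each of the 8 arrays; a point is a gene, and the box and line are the quartiles and median, with whiskers to the farthest point within 1.5 box heights. Mutant replicate 1 has all 35 genes above 0 and mutant replicate 3 has 25 below. The wild-type mean includes each wild-type array, so the wild-type values of a gene average 0 by construction, and their place near 0 is not a result.

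Replicate 1 was the highest of the mutant arrays, and of all 8 arrays, for 33 of 35 genes, and replicate 4 for the other 2, tnt-2 and cpn-3. Replicate 1 was the highest mutant array for 31.1% of all genes. Replicate 3 was the lowest mutant array for 27 of 35 genes, against 31.5% of all genes. The wild-type medians had no such order: the median deviation of each array from the other 3 wild-type arrays ran from -0.013 to 0.053. By rank, wild type leaned the same way for fewer genes. Its highest array was replicate 1 for 15 genes, against 25% of all genes, and replicate 3 for 11, against 37.7%. Replicate 4 was highest for 4 and replicate 2 for 2, with ties for 3. Wild-type replicate 3 was the lowest of its group for 16 genes, against 22.1% of all genes. The median SD of the 35 genes was 0.274 in the mutant and 0.102 in wild type, and that of all genes 0.151 in the mutant and 0.111 in wild type. The mutant range was wider than the wild-type range for 33 of 35 genes, against 66.3% of all genes. A further 39 single-gene probe sets read the same genes with other probes, and they gave a median deviation of 0.362, 0.152, -0.09 and 0.09 on mutant replicates 1 to 4, with replicate 1 the highest mutant array for 26 and replicate 3 the lowest for 21.

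The order of the mutant arrays was also computed under the other scalings, a step added after seeing the data. With each array centred on its median, 31 muscle genes were above wild type on mutant replicate 1 (median 0.268) and 8 on replicate 3 (median -0.162). Over all 17118 genes, 5092 and 7849 were above, with medians of -0.132 and -0.018. After quantile normalization the muscle gene counts were 34 (0.32) and 10 (-0.116), against 7197 and 8594 of all genes (-0.042 and 0.001). Replicate 1 was the highest mutant array for 28 muscle genes in each of these scalings, and replicate 3 was the lowest, ties included, for 24 in each. The difference between genotypes, a median of 0.165 with all 8 arrays, changed with the mutant arrays kept. Without replicate 1, 25 muscle genes were above wild type and 10 below, with a median log2 difference of 0.062. Of all genes 56.9% were then above, with a median of 0.022. Without replicate 3 the count was 33 above and 2 below, with a median of 0.262, against 62.1% of all genes above and 0.042. Without both, 29 were above and the median was 0.14, against 59.9% of all genes and 0.038. In these 3 fits 0 of the 35 were called.

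**Figure D2:**
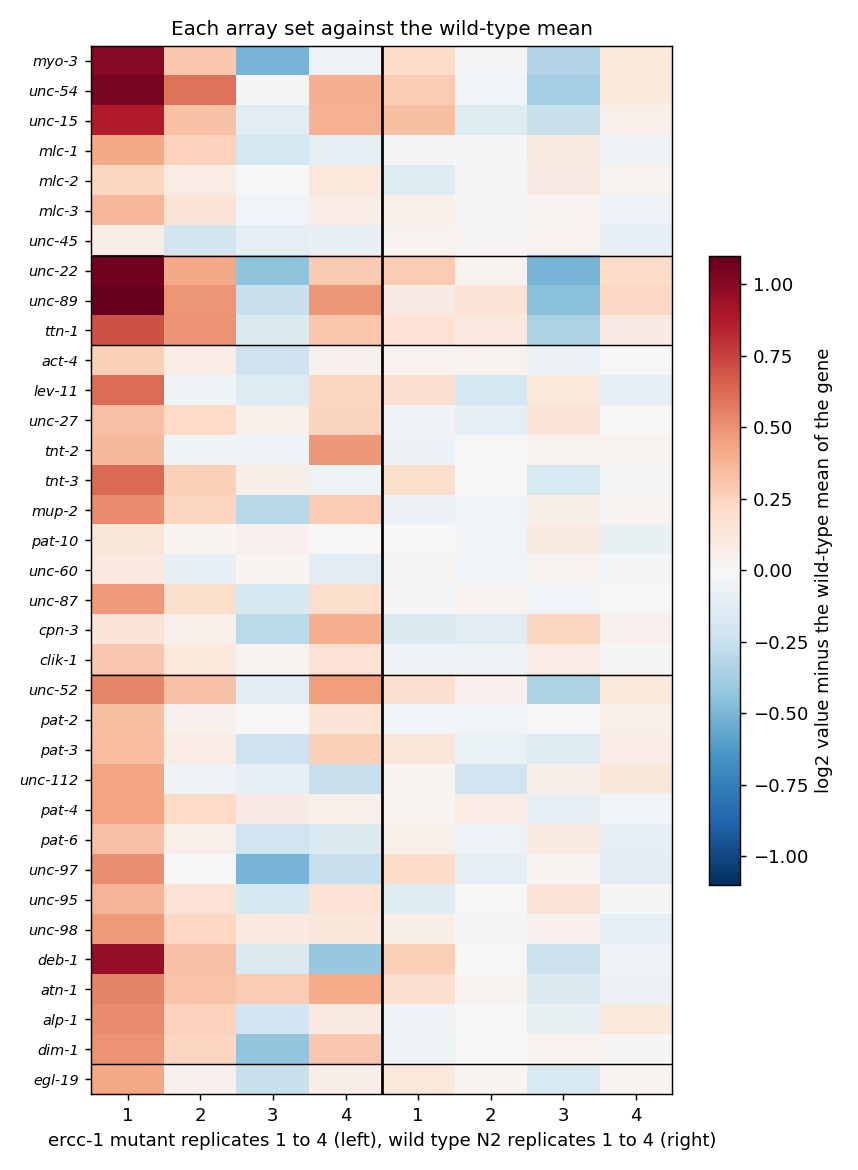
Colour gives the log2 value minus the gene's wild-type mean for the 35 muscle genes (rows, grouped by role) on mutant replicates 1 to 4 (left) and wild-type replicates 1 to 4 (right). The left column, mutant replicate 1, is red in every row and deepest for unc-89, unc-22, unc-54 and myo-3 (1.097, 1.065, 1.04 and 1.0), and mutant replicate 3 is blue in 25 rows.

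Thick filament genes, 7 in number, were above wild type in 6 cases, and 0 were called. The transcript of unc-54, which encodes myosin heavy chain B, the major body wall myosin, had the largest difference of the 35. It read 11.46, 11.02, 10.43 and 10.81 on mutant replicates 1 to 4, against 10.7, 10.39, 10.05 and 10.54 on wild-type replicates 1 to 4. All 4 mutant values were above the wild-type mean, but replicate 3 fell inside the wild-type range. The log2 difference was 0.51 (1.42-fold, SE 0.212, 95% confidence interval 0.034 to 0.986, limma adjusted p = 0.46). For myo-3, which encodes myosin heavy chain A of the filament centre, the mutant arrays read 10.34, 9.64, 8.83 and 9.28, against 9.55, 9.33, 9.02 and 9.46 in wild type. The mutant arrays held both the highest and the lowest of its 8 values, 1.0 above and 0.51 below the wild-type mean. Its log2 difference was 0.18 (95% confidence interval -0.439 to 0.804, adjusted p = 0.897), and -0.09 without mutant replicate 1.

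Paramyosin, encoded by unc-15, read 12.16, 11.61, 11.17 and 11.67 in the mutant, against 11.62, 11.14, 11.04 and 11.34 in wild type. The groups overlapped, since mutant replicates 2 and 3 fell below wild-type replicate 1, and the difference of 0.37 did not pass (adjusted p = 0.604). The other 2 probe sets of unc-15 gave 0.38 and 0.39. The myosin light chains differed less. The essential light chain mlc-3 read 12.41, 12.2, 12.02 and 12.13 in the mutant, against 12.1, 12.03, 12.07 and 11.99 in wild type, a difference of 0.14 (adjusted p = 0.672). Mutant replicate 3 lay inside its wild-type range. The regulatory light chains mlc-1 and mlc-2 gave 0.095 and 0.11 (adjusted p = 0.881 and 0.733). They are close copies of each other, and the mlc-2 probe set has the suffix _x_at, which marks possible matches to other transcripts, so their values may not be separate. The myosin chaperone gene unc-45 gave -0.08 (adjusted p = 0.812) and deviated little on mutant replicate 1 (0.07).

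**Figure D3:**
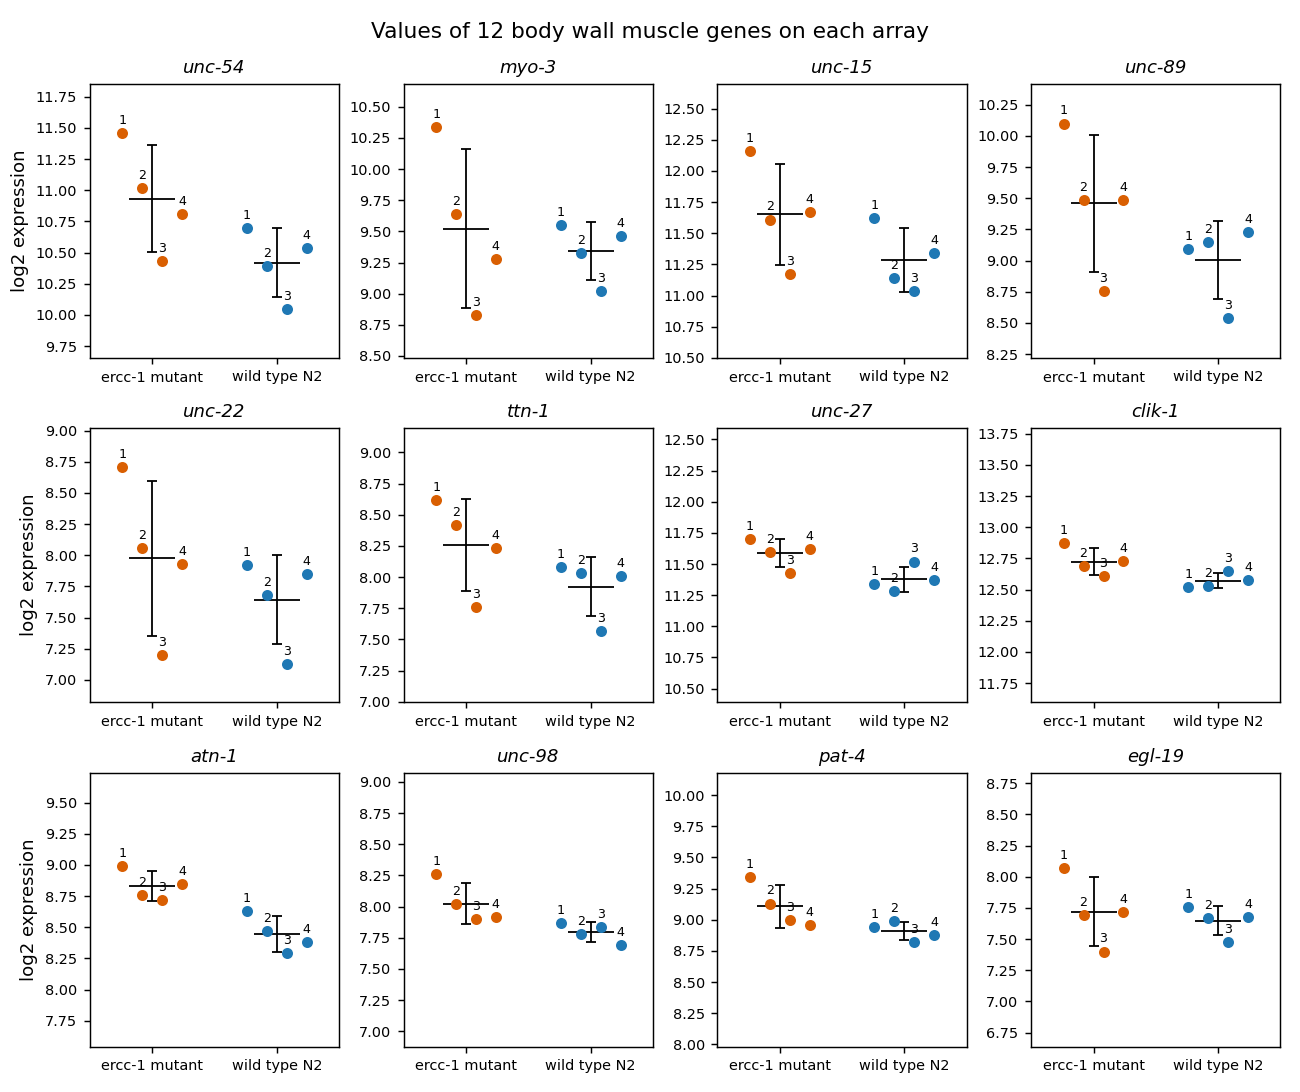
Log2 expression of 12 muscle genes (one panel each, all with the same axis span) on the 4 ercc-1 mutant arrays (left) and the 4 wild type N2 arrays (right); digits are replicate numbers and bars are the mean ± SD. Mutant replicate 1 is the highest mutant array in every panel and replicate 3 the lowest in all but pat-4, and of these 12 genes only atn-1 and unc-98 have groups that do not overlap.

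The genes of giant proteins with immunoglobulin (Ig) domains, which span or organise the sarcomere, had the largest median SD of the role groups. Their median SD was 0.548 in the mutant and 0.314 in wild type, and 0 of the 3 were called. By single gene, the largest mutant SD was that of myo-3 in the thick filament group (0.638), and ttn-1 had 0.368. The unc-89 transcript, which encodes an obscurin-related M-line protein, read 10.1, 9.49, 8.76 and 9.49 in the mutant, against 9.09, 9.15, 8.54 and 9.23 in wild type. Mutant replicates 1, 2 and 4 were above all wild-type arrays, and replicate 3 was below all but wild-type replicate 3. Its log2 difference was 0.46 (SE 0.258, adjusted p = 0.624), and its other 4 probe sets gave -0.055 to 0.27.

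Twitchin, encoded by unc-22, read 8.71, 8.06, 7.2 and 7.93 in the mutant, against 7.92, 7.68, 7.13 and 7.85 in wild type (difference 0.33, adjusted p = 0.792). The other probe set of unc-22 gave 0.078. The titin-related ttn-1 read 8.62, 8.42, 7.76 and 8.23, against 8.08, 8.03, 7.57 and 8.01 (0.335, adjusted p = 0.611), and its other 5 probe sets gave -0.13 to 0.20. In both genotypes replicate 3 was the lowest array for all 3 giant genes. Wild-type replicate 3 deviated by -0.515 for unc-22, -0.463 for unc-89 and -0.352 for ttn-1, and also for unc-54 (-0.37), unc-52 (-0.352), myo-3 (-0.32) and unc-15 (-0.245), which were picked after their values were seen. For the troponin and calponin-related genes and the light chains the wild-type deviations on that array lay between -0.167 and 0.233. Whether replicate numbers stand for a shared batch is not stated in the labels.

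**Figure D4:**
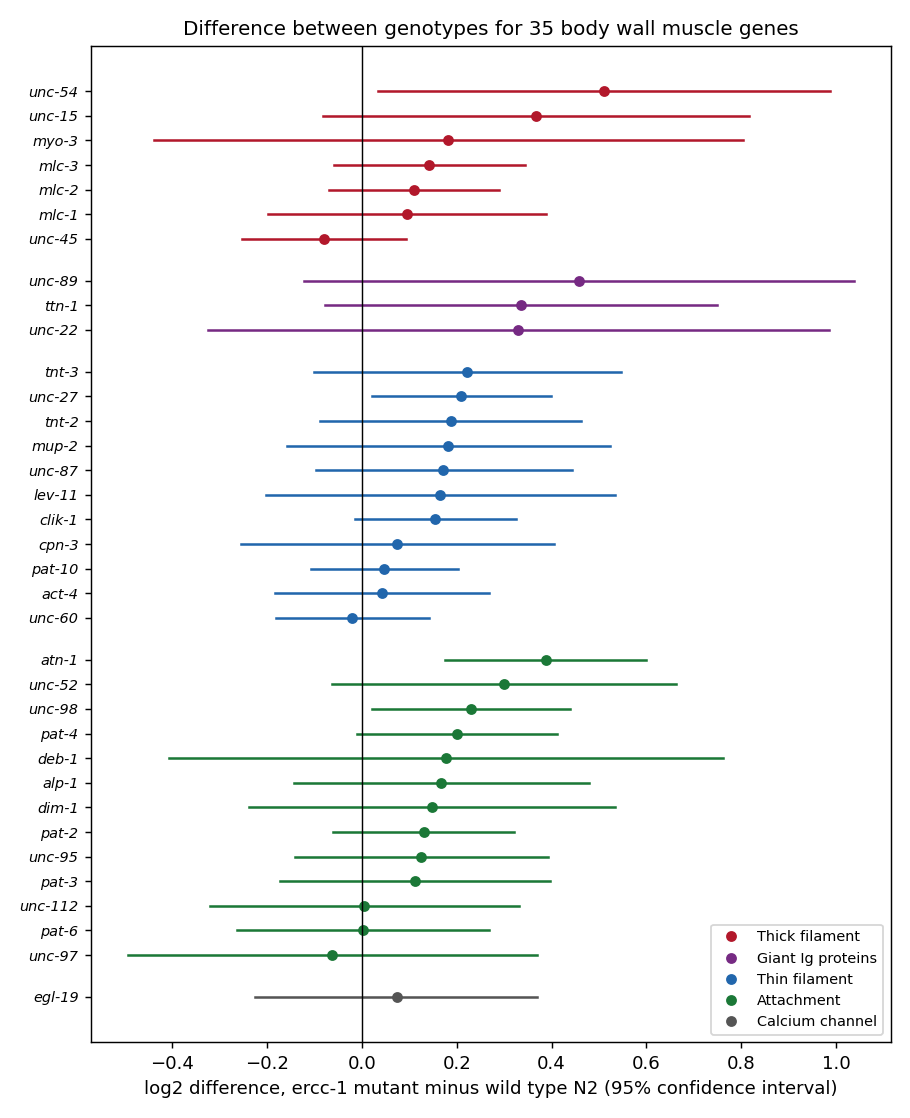
Log2 difference, ercc-1 mutant minus wild type N2, for the 35 genes by role, with the 95% confidence interval of the limma fit as a bar. Of the 35 points 32 are right of 0, and the intervals of unc-54, unc-27, atn-1 and unc-98 exclude 0 before adjustment for the number of probe sets.

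Thin filament genes, 11 in number, were above wild type in 10 cases by 0.22 or less, and 0 were called. Troponin I, the inhibitory troponin subunit encoded by unc-27, read 11.7, 11.6, 11.43 and 11.62 in the mutant, against 11.34, 11.28, 11.52 and 11.37 in wild type. Mutant replicates 1, 2 and 4 were above all wild-type arrays, and replicate 3 was below wild-type replicate 3. The difference was 0.21 (1.16-fold, SE 0.084, adjusted p = 0.438). The calponin-like repeat protein gene clik-1 read 12.87, 12.69, 12.61 and 12.73 in the mutant, against 12.52, 12.53, 12.65 and 12.58 in wild type, so that mutant replicate 3 again lay under wild-type replicate 3. Its difference was 0.155 (adjusted p = 0.558).

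The troponin T genes tnt-3, tnt-2 and mup-2, which encode the tropomyosin-binding subunit, gave 0.22, 0.19 and 0.18 (adjusted p from 0.691 to 0.771). Of these tnt-3 read 7.94, 7.58, 7.38 and 7.26 in the mutant, against 7.51, 7.31, 7.15 and 7.3 in wild type, and mutant replicates 3 and 4 fell inside the wild-type range. Its relative tnt-2 was highest on mutant replicate 4 (11.82) and not on replicate 1 (11.7), against 11.28 to 11.38 in wild type. Troponin C, the calcium sensor encoded by pat-10, gave 0.047, with mutant values of 13.35 to 13.49 and wild-type values of 13.28 to 13.46. Tropomyosin, encoded by lev-11, gave 0.165 (adjusted p = 0.82), and its other 6 probe sets ran from 0.032 to 0.505. The actin gene act-4 gave 0.042 (adjusted p = 0.941), with 12.63 to 13.12 in the mutant and 12.79 to 12.89 in wild type. Among regulators of actin filaments, the calponin-like unc-87 gave 0.17, the calponin-related cpn-3 gave 0.075 and unc-60, which encodes cofilin-type depolymerising factors including a form used outside muscle, gave -0.02 (adjusted p from 0.718 to 0.964). The other 4 probe sets of unc-60 gave -0.035 to 0.205.

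Genes of the dense bodies, M-lines and their matrix, 13 in number, were above wild type in 12 cases, and 0 were called. The smallest p of all 35 genes was that of atn-1, which encodes alpha-actinin, the actin cross-linker of dense bodies. It read 8.99, 8.76, 8.72 and 8.85 in the mutant, against 8.63, 8.47, 8.29 and 8.38 in wild type. All mutant values were above all wild-type values, on replicate 3 as well. The difference was 0.39 (1.31-fold, SE 0.094, 95% confidence interval 0.175 to 0.6, unadjusted p = 0.00242, adjusted p = 0.15), and it stayed between 0.33 and 0.45 when any 1 array was left out (adjusted p from 0.127 to 0.393). The M-line zinc finger protein gene unc-98 read 8.26, 8.02, 7.9 and 7.92 in the mutant, against 7.87, 7.78, 7.84 and 7.69 in wild type. These groups were also separate, with 7.9 the lowest mutant and 7.87 the highest wild-type value, and the difference was 0.23 (1.17-fold, SE 0.093, adjusted p = 0.446).

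The integrin-linked kinase homologue pat-4 read 9.34, 9.13, 9.0 and 8.96 in the mutant, against 8.94, 8.99, 8.82 and 8.88 in wild type. Mutant replicate 4 lay inside the wild-type range, and the difference of 0.20 did not pass (adjusted p = 0.534). Its partners at the integrin tail, the parvin homologue pat-6 and the PINCH homologue unc-97, gave 0.002 and -0.062 (adjusted p = 0.996 and 0.959), and the kindlin homologue unc-112 gave 0.005 (adjusted p = 0.995). For all 3 of these, mutant replicate 1 was above wild type, by 0.325, 0.51 and 0.435, and mutant replicates 3 and 4 below it. The integrin chains themselves, pat-2 (alpha) and pat-3 (beta), gave 0.13 and 0.11, and the other probe set of each gave 0.29 and 0.027. Perlecan, encoded by unc-52, gave 0.30 (adjusted p = 0.6), with 8.96, 8.74, 8.31 and 8.88 in the mutant, against 8.61, 8.47, 8.07 and 8.54 in wild type.

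Vinculin, the dense body protein encoded by deb-1, had a wide mutant spread, with 10.59, 9.96, 9.48 and 9.22 in the mutant, against 9.9, 9.64, 9.4 and 9.6 in wild type. Mutant replicate 4, not replicate 3, was its lowest array, and its difference of 0.18 was -0.082 without mutant replicate 1. The LIM domain proteins of attachment sites, alp-1 and unc-95, gave 0.17 and 0.125, and dim-1, an Ig repeat protein near dense bodies, gave 0.15 (adjusted p from 0.771 to 0.85). The other probe set of alp-1 gave -0.075. The L-type calcium channel gene egl-19, whose product carries the muscle action potential, read 8.07, 7.69, 7.4 and 7.72 in the mutant, against 7.76, 7.67, 7.48 and 7.68 in wild type. Mutant replicate 1 was the highest and replicate 3 the lowest of its 8 values, and the difference was 0.073 (adjusted p = 0.917).

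Other muscle genes outside the set, in 4 lists, also gave 0 calls. On mutant replicates 1 to 4 the median deviation from wild type was 0.429, 0.185, -0.07 and -0.026 for further sarcomere proteins. For excitation and calcium handling it was 0.405, 0.105, -0.092 and 0.025. The dystrophin complex and basement membrane gave 0.425, 0.335, -0.022 and 0.128, and muscle fate genes 0.215, 0.185, -0.062 and 0.062. Replicate 1 thus had the highest and replicate 3 the lowest median in each list. The median SD in the mutant was 0.26 for further sarcomere proteins, against 0.086 in wild type, and 0.254 for excitation and calcium handling, against 0.093 in wild type. It was 0.28 in the mutant for the dystrophin complex and basement membrane, against 0.143 in wild type, and 0.12 in the mutant for muscle fate genes, against 0.048 in wild type. Of 20 measured genes of further sarcomere proteins, 17 were above wild type (median 0.106), with the troponin I gene tni-3 at 0.43 (adjusted p = 0.21) and the zyxin gene zyx-1 at 0.305 (adjusted p = 0.536). Of 17 genes of excitation and calcium handling, 12 were above (median 0.067). Calsequestrin, the calcium store protein encoded by csq-1, gave 0.335 (adjusted p = 0.266) with separate groups, and twk-18, a potassium channel of this muscle, gave 0.305 (adjusted p = 0.555). All 5 muscle fate genes were above (median 0.17), with the HAND factor gene hnd-1 at 0.17 and the SRF-related unc-120 at 0.22 (adjusted p = 0.515 and 0.697). Of 13 genes of the dystrophin complex and basement membrane, 12 were above (median 0.297), with the syntrophin gene stn-1 at 0.31 and ost-1, which encodes the matrix protein SPARC, at 0.30 (adjusted p = 0.133 and 0.166). The groups of stn-1, ost-1 and tni-3 did not overlap.

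Lists of other tissues on the same arrays moved in part with the muscle genes, and their part in the result was not tested. On mutant replicates 1 to 4 the median deviation of 12 neuronal genes was 0.551, 0.3, -0.11 and -0.156, and that of 8 pharyngeal muscle genes 0.531, 0.326, 0.1 and 0.26. Replicate 1 was thus the highest mutant array in both lists, and also in the intestinal list that follows. The 12 intestinal genes gave 0.291, 0.084, 0.084 and 0.005, and the 10 genes of hypodermis and cuticle 0.116, 0.161, -0.099 and 0.412, with replicate 4 highest. The 12 germline and oocyte genes gave -0.049, -0.055, 0.048 and -0.042, and the 11 genes of the somatic embryo 0.028, 0.1, -0.148 and -0.03. The 11 sperm genes, of which 6 were called higher, gave 0.855, 0.638, 0.668 and 1.445. Among the other lists, 0 genes of the neuronal, pharyngeal, intestinal, hypodermal, germline and embryonic lists were called, and their genes above wild type were 8 of 8 pharyngeal, 10 of 12 neuronal, 10 of 12 intestinal, 9 of 10 hypodermal, 7 of 11 embryonic and 4 of 12 germline genes, with 11 of 11 in the sperm list and 59.5% of all genes.

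**Figure D5:**
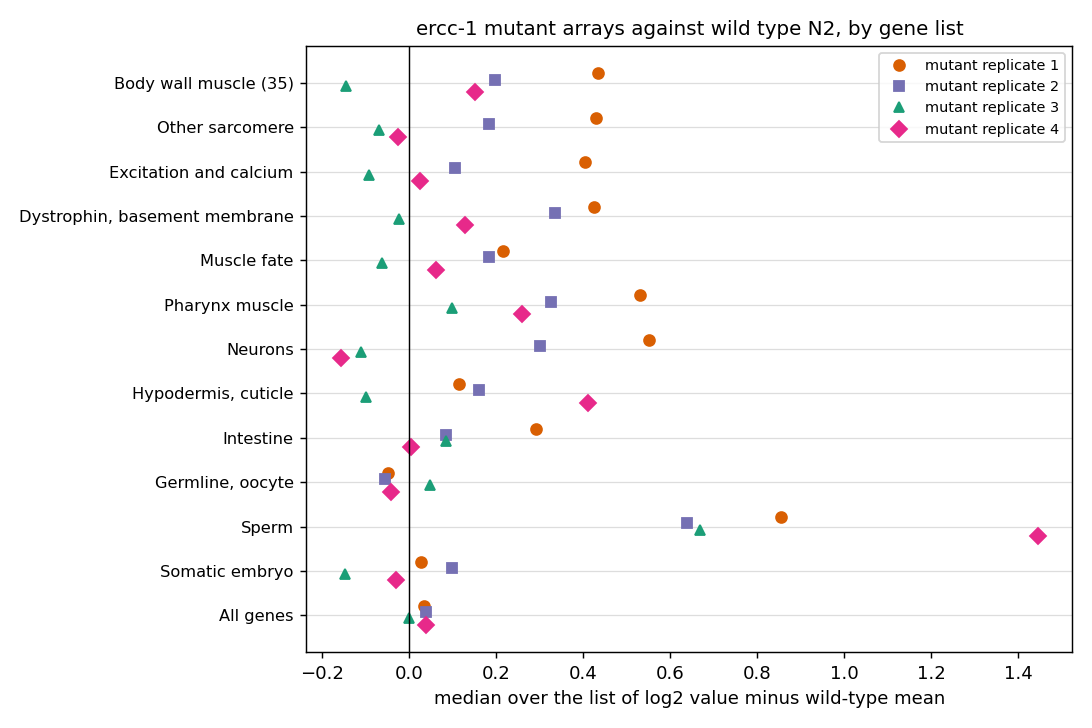
Median over each gene list of the log2 value minus the wild-type mean, for the 4 ercc-1 mutant arrays; vertical offsets within a list only separate the symbols. Mutant replicate 1 is farthest right for body wall muscle (0.435), pharynx muscle (0.531) and neurons (0.551). It is also farthest right for the other muscle lists (0.215 to 0.429) and intestine (0.291). Replicate 4 is farthest right for sperm (1.445) and hypodermis (0.412), replicate 2 for the somatic embryo (0.1) and replicate 3 for germline (0.048). All genes lie between 0.000 and 0.040.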

How the data were processed

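RNA from TRIZOL extraction was biotin-labelled and read on the 1-colour Affymetrix array of the worm genome, per the labels' protocols. The authors deposited 1 table of values per probe set and array, taken as log2 expression, a base inferred from the range, 0 to 14.38. Affymetrix Expression Console 1.1 is named in the submitters' processing notes, with the summarisation and normalization steps not given in the sources used here. No further normalization was applied.

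Probe sets were named from the platform annotation (20766 with 1 gene, 887 with several, 895 with none). Of the 35 genes, 21 had more than 1 single-gene probe set, and 23 were read by a set with the suffix _x_at or _s_at. Members and lists were chosen with earlier results of these data known. The genotypes were compared by limma 3.58.1 under R 4.3.3 (lmFit, eBayes, 2 groups of 4, Benjamini-Hochberg over 22548 probe sets). The fit was tested on simulated data of this comparison (22548 probe sets, 200 changed), where it recovered 49.2% of rises of 0.5 and 88.8% of rises of 1 on the log2 scale. The changed probe sets were drawn at random, with noise independent between probe sets. These shares therefore do not measure recovery for the muscle genes, whose median mutant SD was 0.274, against 0.151 over all genes. The array number (n = 4 per group) limits the precision. Values on all arrays were given for the 3 genes of smallest p in each role group, for unc-54 and myo-3, and for others where stated, and the 2 smallest p of each other muscle list were named. Alternatives were other scalings, filters, variance models, array weights, the mean of all probe sets of a gene, a replicate block, a looser threshold and leaving out arrays.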

Additional observations from a re-analysis of the deposited data

Results flagged for a closer look

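Among 70 groups of 4 values (35 genes in each genotype), 1 held a value far from the other 3, where chance gives about 1 in 20. The titin-related gene ttn-1 read 7.57 on wild-type replicate 3, against 8.01 to 8.08 on the other wild-type arrays. The gap was 0.863 of the group's range, above Dixon's 95% critical value for 4 values.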

How the results depend on the processing

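The count of muscle genes called lower was 0 under every alternative run, and that called higher was 0 under all but array weights. The weighted fit called 3 of the 35 (atn-1, unc-54 and unc-27, limma adjusted p = 0.0289, 0.0459 and 0.0429) and 1423 of all 22548 probe sets. Those weights were 5.05 for mutant replicate 2 and 0.32 to 0.62 for the other mutant arrays. The 150 calls over all probe sets became 46 without _x_at and _s_at probe sets (a fit that holds 18 of the 35 genes), 246 at an adjusted p under 0.10, 21 without mutant replicates 1 and 3 together (added after seeing the data) and 29 to 268 with 1 array left out. The median difference of the muscle genes was 0.075 after median centring (26 above, against 33.1% of all genes, whose median was -0.06). After quantile normalization it was 0.125 (29 above, against 45.8% of all genes, whose median was -0.013). With 1 array left out it ran from 0.062 to 0.262.

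Directions turned for some genes whose difference was at most 0.18 from 0, and the cause was not tested. Median centring gave act-4 -0.048, pat-10 -0.042, cpn-3 -0.015, unc-112 -0.085, pat-6 -0.087 and egl-19 -0.017. Quantile normalization gave unc-112 -0.021, pat-6 -0.028 and egl-19 -0.022. Array weights gave unc-112 -0.006 and unc-97 0.032, and the mean of all probe sets gave unc-60 0.024. Without mutant replicates 1 and 3 together, unc-112, pat-6 and deb-1 read -0.155, -0.05 and -0.045. With 1 array left out, ranges that crossed 0 were -0.09 to 0.413 for myo-3, -0.012 to 0.192 for mlc-1, -0.032 to 0.132 for act-4, -0.063 to 0.013 for unc-60, -0.034 to 0.199 for cpn-3, -0.138 to 0.092 for unc-112, -0.105 to 0.075 for pat-6, -0.253 to 0.087 for unc-97, -0.082 to 0.375 for deb-1 and -0.044 to 0.179 for egl-19.

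The replicate numbers I to IV are shared by both genotypes. Same-numbered arrays deviated together over all probe sets in only some pairs (correlations 0.473, 0.014, 0.04 and 0.201), so they were not treated as pairs. Unlike-numbered arrays gave -0.389 to 0.252. With the replicate block 0 muscle genes and 125 probe sets were called, and the lowest adjusted p of the 35 was 0.101. The block lowered the limma adjusted p of unc-54 from 0.46 to 0.112, of unc-52 from 0.6 to 0.17 and of unc-15 from 0.604 to 0.186. It also lowered that of unc-89 from 0.624 to 0.271 and of ttn-1 from 0.611 to 0.205. Of the 35 genes only unc-27 had a raised adjusted p, from 0.438 to 0.465. The adjusted p of these genes thus changed with the use of the numbering, and whether the numbers mark a shared batch was not tested.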
